A study of Mus musculus with 2 samples.

Results

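The red cell membrane skeleton was followed here through 9 genes: Sptb, Ank1, Slc4a1, Epb41, Epb42, Add2, Tmod1, Dmtn and Mpp1. They were taken by gene identifier and GENCODE symbol, and all 9 had a row in both libraries, out of 43346 annotated genes. The study sequenced total RNA of megakaryocyte-erythroid progenitors (MEP), bone marrow cells that give rise to red cells and to platelet-producing megakaryocytes. The 2 libraries held 100 primary cells each and came from adult male C57BL/6J mice aged 5 to 6 weeks, with separate biosample records but 1 donor record. No treatment or genetic change is labelled, and there was 1 group, so no comparison between groups and no p-value was possible. Whether the libraries came from separate animals is not stated, and their spread may be technical.

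The membrane skeleton is a flat protein net under the red cell membrane that lets the cell bend in the circulation and spring back. Spectrin tetramers form its strands, which are held to the membrane by ankyrin bound to the anion exchanger band 3, with protein 4.2 at that contact. At their ends the strands meet at junctions of short actin filaments, protein 4.1, adducin, tropomodulin and dematin, which protein 4.1 and p55 tie to glycophorin C. Inherited defects of β-spectrin, ankyrin, band 3 and protein 4.2 are known causes of spherocytosis, and defects of protein 4.1 of elliptocytosis.

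Most of the skeleton was already expressed in MEP, but 2 of the 9 genes were nearly silent. Levels below are the deposited TPM, a share of all transcripts corrected for transcript length, so that genes can be compared. At 10 TPM or more in both libraries stood 6 of the 9 genes, against 24.7% of 21461 protein-coding nuclear genes, and 7 of 9 reached 1 TPM in both, against 44.2%. The median over the 9 genes was 18.2 and 19.2 TPM in replicates 1 and 2. Slc4a1 and Tmod1 were the pair under 1 TPM, on 11 to 36 expected counts a library. In pools of 100 cells, fewer expressing cells and less RNA per cell cannot be told apart. The highest member stood 363 times above the lowest in replicate 1 and 445 times in replicate 2, and 84.8 and 148 times with posterior means, the authors' second estimate.

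The MEP and erythroid marker list was led by carbonic anhydrase genes, Car1 at 1941 and 2286 TPM and Car2 at 905 and 1165 TPM. All 8 of its genes reached 10 TPM in both libraries. Of 7 late red cell genes 6 did so, led by the globin genes Hba-a2 at 110 and 169 TPM and Hba-a1 at 118 and 116 TPM, near-identical copies whose split of reads is uncertain. The gene that did not was Alas2, at 0.88 and 0.07 TPM, named after its values were seen. Of all protein-coding nuclear genes 24.7% reached 10 TPM in both libraries. The lists were chosen with earlier results of these data known, so these counts are not independent support for the label. The libraries summed to 30016974 and 51510347 expected counts. Markers of other cells differed between them: the summed level of 8 granulocyte genes was 1882 TPM in replicate 1 but 6.39 TPM in replicate 2, where 5 of them were at 0, with S100a8 at 782 and 5.81 TPM and S100a9 at 677 and 0.52 TPM. All 7 B cell genes were higher in replicate 2, summing to 7.14 and 126 TPM, led by Igll1 at 0.43 and 41.8 TPM and Vpreb1 at 0 and 32.5 TPM. The megakaryocyte and platelet list summed to 21.1 and 29.7 TPM, with Itga2b at 11.5 and 14.5 TPM, Vwf at 4.55 and 6.99 TPM and 1 of 8 genes, Ppbp, at 0 in both. The T and NK cell list summed to 44.9 and 34.6 TPM, with Nkg7 at 23.0 and 19.2 TPM and Cd3g at 12.6 and 1.10 TPM. The macrophage list summed to 2.72 and 2.98 TPM, almost all of it Cd68 at 2.11 and 2.98 TPM, with C1qa at 0.60 and 0 TPM. The part of these cells in the members' values was not tested.

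**Figure D1:**
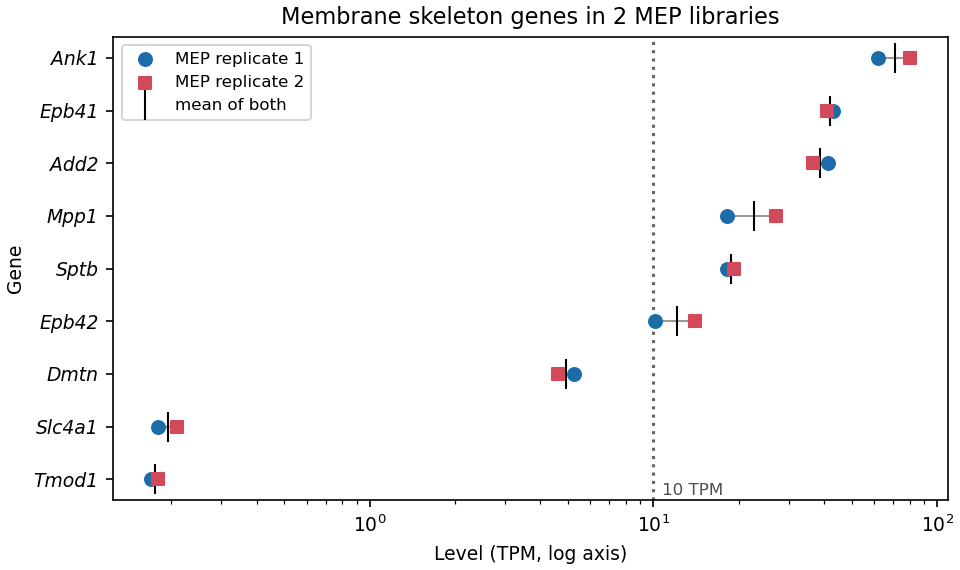
Level of the 9 membrane skeleton genes in the 2 MEP libraries, in TPM on a log axis; circles and squares are the libraries, the vertical tick is their mean, and the dotted line marks 10 TPM. Ank1 stands highest at 61.7 and 80.2 TPM, 6 genes lie at or right of the dotted line, and Slc4a1 and Tmod1 lie together near 0.2 TPM.

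Sptb (ENSMUSG00000021061.11, mm10 chromosome 12, 76580488 to 76710547, minus strand) encodes β-spectrin, the chain that carries the ankyrin site of the strands. Replicate 1 gave 18.2 TPM and replicate 2 gave 19.2 TPM, from 3240 and 5781 expected counts, a mean of 18.7 ± 0.679 TPM (SD, n = 2). The libraries thus lay close together, with a ratio of replicate 2 to replicate 1 of 1.05 (95% exact interval 1.01 to 1.10, counting error only, as for all ratio intervals here). The locus makes β-spectrin with different ends, and MEP used nearly only the shorter ending. Sptb-202, a coding transcript of 2137 codons, took 94.1% of the gene's TPM in replicate 1 and 93.7% in replicate 2. Sptb-201, of 2329 codons, took 5.91% and 3.60%, at 1.08 and 0.69 TPM. As background, the shorter ending is the erythroid form, while the longer one adds a pleckstrin homology domain and was described in muscle and brain. The split has good support, since Sptb-202 has 1600 bases in no other transcript of the gene and Sptb-201 has 3531.

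The coding ends show where the forms part, so both are printed, 5′ to 3′ on the minus strand, from the GRCm38 (mm10) transcripts of GENCODE M21. After the last shared coding base, at position 76597726 of chromosome 12, Sptb-202 reads on in the same exon for 66 bases, or 22 codons, to a stop codon, shown in capitals after the stretch chr12:76597660-76597725. Sptb-201 splices there to further exons, which add 214 codons; only the opening 66 bases are shown, chr12:76587525-76587590.
Sptb-202 coding end: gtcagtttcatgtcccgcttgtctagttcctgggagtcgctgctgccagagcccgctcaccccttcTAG
Sptb-201 coding end: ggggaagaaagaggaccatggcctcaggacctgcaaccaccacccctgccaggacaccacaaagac

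Ank1 (ENSMUSG00000031543.14, chromosome 8, 22974844 to 23150497, plus strand) encodes ankyrin, which links β-spectrin to band 3, and was the highest of the 9 genes. Replicate 1 gave 61.7 TPM and replicate 2 gave 80.2 TPM, from 8092 and 15433 expected counts, a mean of 70.9 ± 13.1 TPM (SD, n = 2). Its lower library stood above the next gene, Epb41, and it made up 31.2% and 36.0% of the TPM of all 9 genes. The ratio of the libraries was 1.30 (95% exact interval 1.27 to 1.34), more than counting error gives.

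The excess of Ank1 in replicate 2 lay in its short transcripts and not in the long ones. The 10 coding transcripts of over 1000 codons, which encode the spectrin-binding ankyrins, summed to 46.1 and 46.2 TPM. The 3 coding transcripts of under 200 codons summed to 6.77 and 21.7 TPM, which was 11.0% and 27.1% of the gene. As background, short ankyrins of this kind start at an internal promoter, lack the spectrin-binding part and are known from the sarcoplasmic reticulum of muscle. Among them Ank1-208 was at 6.61 and 11.9 TPM, with 75 bases of its own. Ank1-201 was at 0.16 and 9.82 TPM and has no base of its own, so its level rests on how reads were shared out. Without length correction the picture of the whole gene changed: as CPM with TMM factors Ank1 lay 0.06 below the median log2 difference of all genes, against 0.19 above it as TPM.

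Long Ank1 transcripts began at 4 places, of which the last carried 0 and 0.12 TPM. A start group 60255 bases downstream of the most upstream one carried the most TPM, 30.9 and 28.9, or 50.1% and 36.0% of the gene. The most upstream group carried 11.9 and 15.0 TPM, or 19.3% and 18.7%. A further group, 83415 bases downstream, carried 5.21 and 4.16 TPM. Part of the TPM of that group came from transcripts annotated for nonsense-mediated decay. These were Ank1-210 at 0.92 and 1.47 TPM and Ank1-216 at 0.98 and 0.48 TPM. The leading transcript was Ank1-213 in replicate 1, at 28.5% there and 16.9% in replicate 2, and Ank1-209 in replicate 2, at 19.3% and 18.7%. Of the others Ank1-205 took 9.18% and 18.0%, and Ank1-206 took 12.5% and 1.07%; Ank1-205, Ank1-209 and Ank1-213 have no base that is theirs alone. A 125-base exon near the 3′ end was held by 68.4% and 67.8% of the TPM that spans it, and a 24-base coding exon by 35.7% and 39.8%.

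Slc4a1 (ENSMUSG00000006574.11, chromosome 11, 102348824 to 102366203, minus strand) encodes band 3, the anion exchanger that ankyrin and protein 4.2 bind. Replicate 1 gave 0.18 TPM and replicate 2 gave 0.21 TPM, from 17 and 36 expected counts, where 3 counts would be 0.0318 and 0.0175 TPM. The gene was therefore detected in both libraries but very low, and the libraries could not be told apart, with a ratio of 1.17 (95% exact interval 0.639 to 2.22). Ank1 exceeded its membrane partner by 343 and 382 times in the libraries. The authors' posterior mean gave 1.20 and 0.93 TPM, of which the coding transcript Slc4a1-201 took 14.8% and 22.7%, although Slc4a1-201 held all expected counts. With it Ank1 exceeded Slc4a1 by 50.2 and 84.1 times, so the size of the gap depends on the estimate, while both estimates put Slc4a1 below Dmtn.

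Epb42 (ENSMUSG00000023216.9, chromosome 2, 121017891 to 121037072, minus strand) encodes protein 4.2, a relative of transglutaminases that has lost enzyme activity and sits between band 3 and ankyrin. Replicate 1 gave 10.1 TPM and replicate 2 gave 14.1 TPM, from 518 and 1071 expected counts, a mean of 12.1 ± 2.77 TPM (SD, n = 2). It therefore stood at the 10 TPM line in replicate 1 and above it in replicate 2, with a ratio of 1.39 (95% exact interval 1.25 to 1.54). Transcripts of protein 4.2 thus stood at 56.3 and 67.0 times the TPM of those of band 3, and at 8.53 and 15.1 times with posterior means. By the estimated TPM of single transcripts, the coding ones did not carry the difference. Epb42-201 and Epb42-202 together were at 4.71 and 4.34 TPM, which was 46.5% and 30.8% of the gene. Epb42-201 was at 3.12 and 1.65 TPM, and Epb42-202 at 1.59 and 2.69 TPM. The largest share, 41.1% and 56.4%, was Epb42-206, a transcript without a coding sequence that covers the 3′ part of the gene and has 65 bases of its own. Epb42-204, also without a coding sequence, took 0% and 12.8%.

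Epb41 (ENSMUSG00000028906.11, chromosome 4, 131923413 to 132075321, minus strand) encodes protein 4.1, which strengthens the contact of spectrin with actin and ties the junction to glycophorin C. Replicate 1 gave 43.0 TPM and replicate 2 gave 40.8 TPM, from 3835 and 6764 expected counts, a mean of 41.9 ± 1.58 TPM (SD, n = 2). The ratio was 0.948 (95% exact interval 0.911 to 0.986), and its range overlapped that of Add2. The gene is known for stage-specific splicing in the red cell lineage, and the sequences below are the pieces whose use could be read from the tables.

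A choice between acceptors 17 bases apart decides whether an upstream start codon enters the transcript, and a 63-base exon adds 21 codons to the spectrin-actin binding domain. As background, the upstream start codon gives the long protein 4.1 of early cells, and skipping it gives the shorter protein of red cells, whose lineage gains the 63-base exon as it matures. The bases between the acceptors, chr4:132007422-132007438, have the start codon in capitals from base 8 of the stretch. The exon lies at chr4:131962924-131962986. Both are from GRCm38, minus strand.
Epb41 bases between acceptors: gaacatcATGacaacag
Epb41 alternative exon: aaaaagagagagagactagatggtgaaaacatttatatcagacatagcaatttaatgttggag

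Among Epb41 transcripts spliced to either acceptor, those with the upstream start codon took 32.6% and 32.2% of the TPM in replicates 1 and 2. They summed to 9.63 and 11.6 TPM, of which Epb41-209, of 4 exons and no coding sequence, held 6.85 and 5.74 TPM. Epb41-209 has no base of its own, so its level rests on how reads were shared out. The share with the start codon is therefore not a share of coding transcripts. The TPM without the start codon, 19.9 and 24.4, was a single transcript, Epb41-215, which uses the downstream acceptor. Epb41-215 is annotated as a processed transcript with no coding sequence. It led the gene in both libraries, at 46.3% and 59.8%, and has 29 bases of its own. Epb41-204, the coding transcript with that acceptor, was listed at 0 TPM in both. Transcripts that begin inside that exon use neither acceptor and are left out of these shares. The 63-base exon was held by 24.1% and 14.6% of the TPM that spans it, or 8.30 and 4.85 TPM. Epb41-215 lacks the exon too, so these shares move with its level and are not separate measurements. Exons of 42 and 57 bases upstream of it were each held by 11.1% and 5.95%. Of the other named transcripts Epb41-209 took 15.9% and 14.1%, Epb41-212 took 10.4% and 7.07%, and Epb41-202 took 11.3% and 0%.

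**Figure D2:**
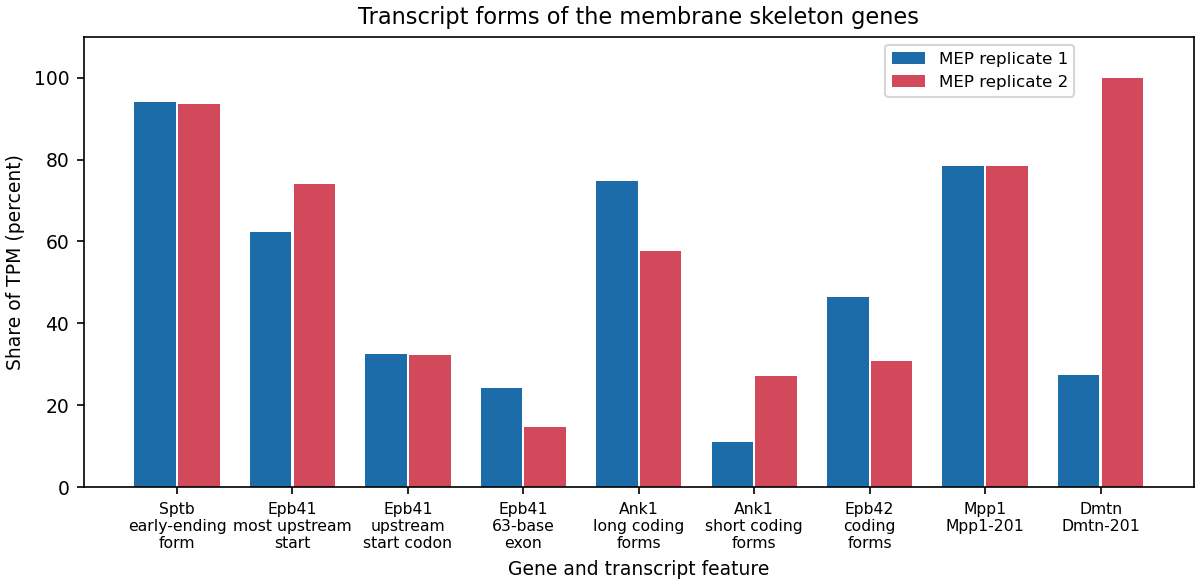
Share of TPM, in percent, of 9 transcript features in the 2 MEP libraries, as bars from 0; shares are of the gene's TPM, except the Epb41 start codon and 63-base exon, which are of the TPM of transcripts spliced to either acceptor or spanning the exon. The early-ending Sptb form (94.1% and 93.7%), the Epb41 start codon (32.6% and 32.2%) and Mpp1-201 (78.4% and 78.3%) are alike in both libraries, while the Dmtn and Ank1 features differ.

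Epb41 starts at several sites, and their use was uneven. The most upstream start group carried 26.8 and 30.1 TPM, or 62.3% and 73.9% of the gene. The next, 3224 bases downstream, carried 1.63 and 1.97 TPM, and the third, 26230 bases downstream, 1.15 and 3.88 TPM. Transcripts that begin further downstream, at the exon with the start codon, carried 7.04 and 0 TPM, or 16.4% and 0% of the gene, and Epb41-212, which begins after it, 4.47 and 2.88 TPM. RefSeq promoter windows (GRCm38.p6, 250 bases before to 50 after a start) were matched by symbol for 6 of the 9 genes, 8 windows in all, of which Epb41 had 3. Those of Epb41 and that of Mpp1, whose start is that of the leading Mpp1-201, are printed from 250 bases before the start through base 20 of the transcript to set used and little-used starts side by side. Capitals mark matches, on either strand, to a GATA motif, the letters GATA with A or T before and A or G after, or to CACCC, which KLF factors bind; the searched motifs do not overlap each other here.
Epb41 window 1, chr4:132075294-132075563, minus strand: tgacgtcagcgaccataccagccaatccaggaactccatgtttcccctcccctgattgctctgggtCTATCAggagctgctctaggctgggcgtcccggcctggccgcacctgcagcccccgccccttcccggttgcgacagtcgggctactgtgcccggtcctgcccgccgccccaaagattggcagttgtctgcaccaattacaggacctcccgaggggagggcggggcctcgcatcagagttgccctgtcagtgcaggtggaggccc
Epb41 window 2, chr4:132072078-132072347, minus strand: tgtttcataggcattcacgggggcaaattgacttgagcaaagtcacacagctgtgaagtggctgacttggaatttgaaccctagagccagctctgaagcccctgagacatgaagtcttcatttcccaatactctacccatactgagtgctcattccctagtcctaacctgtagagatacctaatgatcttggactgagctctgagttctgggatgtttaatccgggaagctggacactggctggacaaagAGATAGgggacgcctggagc
Epb41 window 3, chr4:132049059-132049328, minus strand: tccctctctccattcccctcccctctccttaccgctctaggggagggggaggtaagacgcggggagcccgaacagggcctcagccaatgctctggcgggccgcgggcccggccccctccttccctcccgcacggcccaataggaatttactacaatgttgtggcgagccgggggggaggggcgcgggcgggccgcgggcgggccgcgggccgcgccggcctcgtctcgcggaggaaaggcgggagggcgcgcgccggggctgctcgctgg
Mpp1 window, chrX:75130997-75131266, minus strand: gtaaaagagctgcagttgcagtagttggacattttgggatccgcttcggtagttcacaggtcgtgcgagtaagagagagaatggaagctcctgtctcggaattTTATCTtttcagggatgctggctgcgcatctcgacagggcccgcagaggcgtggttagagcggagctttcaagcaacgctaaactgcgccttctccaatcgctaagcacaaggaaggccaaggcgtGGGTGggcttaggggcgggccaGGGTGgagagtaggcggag

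The third Epb41 window has no match to these motifs, while the other Epb41 windows have 1 GATA match each. Mpp1 has 1 GATA match and 2 CACCC matches. Over all 8 windows 6 held a GATA match, against 29.8% of 32851 promoter windows in the table, and 4 held CACCC, against 57.5%. TATAAA was found in the window of Epb42 alone, against 13.6%. A match describes these letters and is neither a bound site nor a cause. Several windows do not sit at the start in use: that of Sptb lies at Sptb-201, 524 bases upstream of the start of Sptb-202, and that of Tmod1 at a transcript listed at 0 TPM. For Add2 the window lies 49403 bases upstream of the only transcript that was quantified. The 8 listed regulators of the lineage, among them Gata1 and Klf1, all reached 10 TPM in both libraries, against 24.7% of protein-coding nuclear genes. Gata1, Klf1 and Gfi1b are also in the MEP and erythroid marker list, so the lists are not separate.

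Add2 (ENSMUSG00000030000.8, chromosome 6, 86028681 to 86124409, plus strand) encodes β-adducin, which pairs with α-adducin, caps actin filaments and recruits spectrin to the junction. Replicate 1 gave 41.1 TPM and replicate 2 gave 36.4 TPM, from 2696 and 4149 expected counts, a mean of 38.8 ± 3.37 TPM (SD, n = 2). Its ratio of 0.884 (95% exact interval 0.842 to 0.929) put it 0.35 below the median log2 difference of all genes. Only 1 of its 10 transcripts in GENCODE M21, Add2-201 of 725 codons, was in the tables, so its forms could not be read.

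Dmtn (ENSMUSG00000022099.12, chromosome 14, 70601263 to 70636048, minus strand) encodes dematin, an actin-bundling protein of the junction. Replicate 1 gave 5.25 TPM and replicate 2 gave 4.62 TPM, from 465 and 707 expected counts, a mean of 4.94 ± 0.445 TPM (SD, n = 2). Dmtn was thus well above Slc4a1 and Tmod1 but below the other genes, with a ratio of 0.880 (95% exact interval 0.782 to 0.991). Its transcripts were named after their values were seen: Dmtn-203 took 72.5% in replicate 1 and 0% in replicate 2, and Dmtn-201 took 27.5% and 100%. The quantified models of 2 of the 3 Dmtn transcripts differ in length from GENCODE M21, so their exon content was not read.

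Tmod1 (ENSMUSG00000028328.9, chromosome 4, 46038935 to 46116032, plus strand) encodes the tropomodulin that caps the pointed ends of the red cell's actin filaments. Replicate 1 gave 0.17 TPM and replicate 2 gave 0.18 TPM, from 11 and 21 expected counts, where 3 counts would be 0.0464 and 0.0257 TPM. The ratio of 1.06 (95% exact interval 0.488 to 2.43) does not separate the libraries. The posterior mean was 0.71 and 0.53 TPM. Its exons share 1287 bases with exons of Tstd2 on the opposite strand, at 11.5 and 15.7 TPM. Counting by strand is not stated in the sources used here, so reads of the pair cannot be told apart there.

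Mpp1 (ENSMUSG00000031402.8, chromosome X, 75109733 to 75131016, minus strand) encodes p55, a membrane-associated guanylate kinase that joins protein 4.1 and glycophorin C. Replicate 1 gave 18.2 TPM and replicate 2 gave 27.0 TPM, from 793 and 2130 expected counts, a mean of 22.6 ± 6.27 TPM (SD, n = 2). This was the largest difference between libraries among the 9 genes, with a ratio of 1.49 (95% exact interval 1.37 to 1.62). Its main coding transcript carried much of it: Mpp1-201 was at 14.2 and 21.2 TPM, or 78.4% and 78.3% of the gene. Mpp1-207, a retained intron, took 19.4% and 0%, and Mpp1-204, annotated for nonsense-mediated decay, took 0% and 11.9%, on 22.0 and 25.2 expected counts where present. Exons of Mpp1 share 45 bases with Dkc1 on the opposite strand, at 95.4 and 89.8 TPM.

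In the order of levels, Ank1 stood above Epb41 and Add2, whose ranges overlapped, followed by Mpp1 and Sptb, whose ranges also overlapped. Epb42, Dmtn and the pair of Slc4a1 and Tmod1 came next. The ranges of Slc4a1 and Tmod1 touched at 0.18 TPM. The order of neighbours was the same in both libraries except for Mpp1 and Sptb, with Mpp1 at 0.996 and 1.41 times Sptb. Where ranges overlapped or touched, neither gene is called higher. Of the 5 members with several transcripts and 5 TPM in both libraries, the leading transcript differed between libraries for Ank1 alone, against 26.4% of 5453 such genes. Dmtn, at 4.62 TPM in replicate 2, missed that minimum, and its leading transcript differed too.

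Each gene was set beside its closest relatives, to see whether MEP used the red cell member of each family. In TPM, Sptb, Ank1, Epb41, Epb42 and Dmtn, 5 of 9, were above their highest relative in both libraries, and 4 were with posterior means, Dmtn dropping out. In the other families, Slc4a1, Tmod1, Add2 and Mpp1 were below a relative. For Add2 that relative was Add1, the α-adducin it pairs with, while Add2 stood above Add3. Its place below Add1 thus does not show that another adducin was used in its stead. Of 28 relatives 2, Add1 and Mpp6, reached 10 TPM in both libraries, and 7 had 0 counts in both, among them Slc4a3, Epb41l3, Tgm1, Tgm3, Ablim3 and Mpp3. For these named genes a count of 0 allows a level of up to 0.0185 to 0.0726 TPM, depending on the gene and library.

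Ank1 stood alone, with Ank2 at 1 and 2 counts and Ank3 at 0 and 1 counts. Epb41 made up 93.9% and 95.1% of its family, with Epb41l2 at 2.79 and 2.11 TPM and Epb41l1 at 1 and 0 counts. Sptb exceeded Sptbn1, a widely expressed β-spectrin, by 3.49 and 3.41 times, with Sptbn1 at 5.23 and 5.63 TPM and Sptan1, the α-spectrin of other tissues, at 3.13 and 1.92 TPM. Sptbn4 was at 0.15 and 0.04 TPM and Sptbn5 at 0 and 0.17 TPM. Epb42 was close to the transglutaminase Tgm2 in replicate 1, at 1.25 times its 8.10 TPM, and stood 2.94 times above its 4.78 TPM in replicate 2. The factor XIII gene F13a1 had 6 and 1 counts. Dmtn and Ablim1, at 4.52 and 4.31 TPM, were nearly level, with ratios of 1.16 and 1.07. With posterior means the mean log2 ratio of Dmtn to Ablim1 was -0.00055, so neither is called higher.

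The families led by a relative showed which other gene was present. Slc4a2, a widely expressed anion exchanger, was at 9.54 and 9.27 TPM, 53 and 44.1 times Slc4a1. Tmod3, the tropomodulin of many other cells, was at 9.77 and 10.1 TPM, 57.5 and 56.2 times Tmod1, with Tmod4 at 1.01 and 2.34 TPM and Tmod2 at 16 and 0 counts. Posterior means narrow these gaps, as given in the closing section, and leave the direction. α-Adducin, Add1, was at 107 and 86.6 TPM, 2.60 and 2.38 times Add2, and Add3, which replaces β-adducin in other tissues, was at 11.2 and 9.50 TPM, below Add2. Mpp6 was at 24.7 and 33.3 TPM, 1.36 and 1.23 times Mpp1, with Mpp5 at 3.91 and 4.17 TPM and Mpp2 at 1.53 and 1.52 TPM. Mpp6 and Mpp1 were both higher in replicate 2, so their ratio differed less than their levels.

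**Figure D3:**
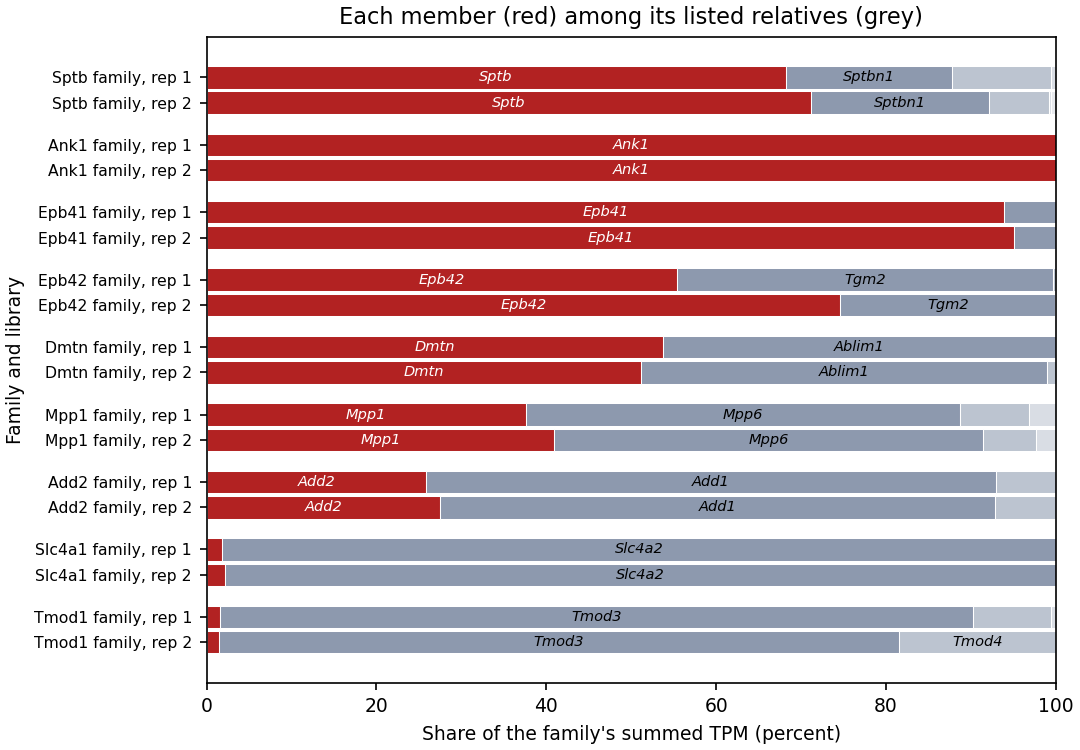
Share of each family's summed TPM, in percent, held by the member (red) and its listed relatives (grey), for each MEP library. Red fills nearly all of the Ank1 and Epb41 families, over 68% of the Sptb family, between 25% and 41% of the Add2 and Mpp1 families, and under 3% of the Slc4a1 and Tmod1 families.

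The partners of the net were mostly present. Of 13 genes of the actin junction 10 reached 10 TPM in both libraries, led by the actins Actb at 1089 and 894 TPM and Actg1 at 340 and 364 TPM and the capping protein gene Capzb at 89.2 and 108 TPM. Lmod1, a leiomodin of muscle related to tropomodulin, had 0 counts in both. Of 13 genes of the membrane to which the net is tied 11 reached 10 TPM in both, led by the Kell antigen gene Kel at 125 and 259 TPM, basigin (Bsg) at 150 and 216 TPM and Cd47 at 92.3 and 140 TPM. The share over all protein-coding nuclear genes was 24.7%. The median was 52.0 and 47.0 TPM over the junction list and 40.8 and 47.0 TPM over the membrane list. Slc2a1, the glucose transporter, was the single membrane partner under 1 TPM in both, at 0.96 and 0.48 TPM, and was named after its values were seen. Glycophorin C, the anchor of protein 4.1 and p55, was likewise looked at afterwards: Gypc was at 35.7 and 37.4 TPM.

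The differences of the members between the libraries were not all in 1 direction. The difference was taken as log2(TPM + 1), replicate 2 minus replicate 1, a scale that understates the change of low genes. Over 9982 protein-coding nuclear genes with a mean of at least 1 TPM its median was 0.18 and its SD 0.58, so the members are read against that shift. None of the 7 members at that level differed by more than 2-fold, against 7.58% of those genes, 5.13% higher and 2.45% lower in replicate 2. Neither did Slc4a1 or Tmod1 on this scale, which makes 0 of 9, against 4.31% of all protein-coding nuclear genes. At their levels the pseudocount of 1 leaves little room for such a call. Their ratio intervals, 0.639 to 2.22 for Slc4a1 and 0.488 to 2.43 for Tmod1, reach past 2-fold. With so few genes, a count of 0 lies near these shares and does not set the members apart. The median over the 9 members was 0.04. Relative to the shift, Mpp1 was higher by 0.37, Epb42 by 0.26 and Ank1 by 0.19. Sptb lay at -0.11, Epb41 at -0.26, Dmtn at -0.33 and Add2 at -0.35 relative to it. For Ank1 the sign depends on the scale, as given above, and Epb42 lay 0.05 above the shift as CPM with TMM factors, while Mpp1 kept 0.42. Of the membrane partners Kel alone was over 2-fold apart, 1.04 higher in replicate 2. A difference between single libraries is a property of those libraries, and the granulocyte and B cell markers given at the start moved with them.

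**Figure D4:**
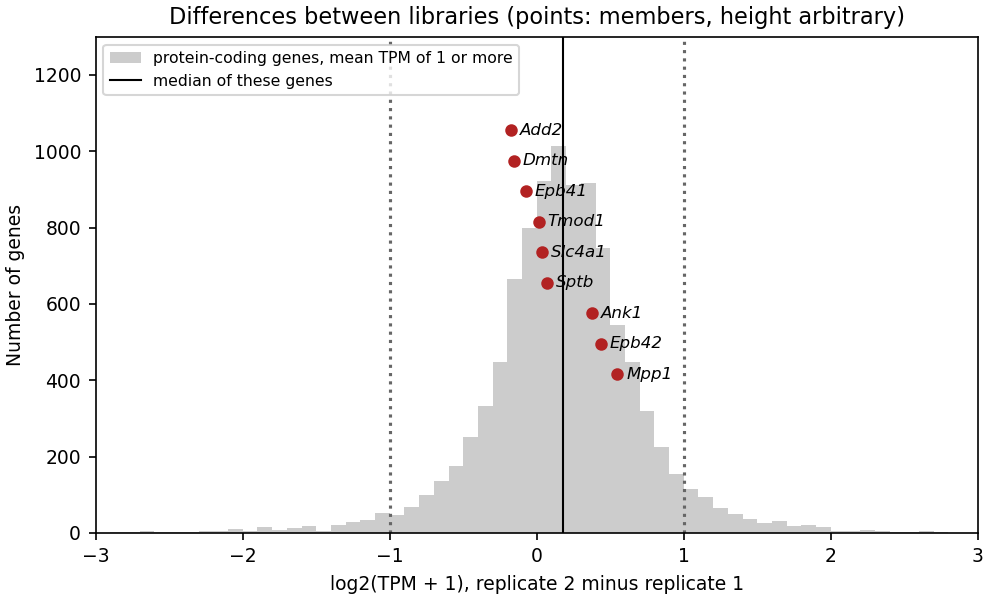
Number of protein-coding nuclear genes (mean of at least 1 TPM) by the difference in log2(TPM + 1), replicate 2 minus replicate 1; the black line is their median, dotted lines mark 2-fold, and 23 genes lie beyond the axis. The 9 members, as points at arbitrary heights, all lie between the dotted lines, from Add2 at -0.17 to Mpp1 at 0.55.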

How the data were processed

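Total RNA above 200 bases was sequenced in 2 MEP libraries of 100 cells, with spike-ins, per the labels. The README deposited with the tables names mm10 and GENCODE M4 as the assembly and annotation; for aligner, quantifier and strand setting, these were not given in the sources used here. As deposited by the authors, expected counts are estimated reads per gene or transcript and need not be whole. The deposited TPM, and the deposited FPKM used as an alternative, correct for effective length, and TPM is a share of all features, so that abundant ribosomal RNA pushes other genes down. The deposited percent values are each transcript's share of its gene's TPM. The deposited signal columns are bounds of credibility intervals, and the deposited score columns are standard deviations of the posterior counts, which were left out.

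Names, biotypes and gene models came from GENCODE M21 on GRCm38. The members and lists were chosen with earlier results of these data known. All 9 members and their 28 relatives were to be named, with the 3 highest of each partner list and genes with 0 counts, the 2 highest of each cell type list, and transcripts at 10% or more of a member at 5 TPM in both libraries; exceptions are stated in the text, and some genes that the rule takes are left out of it. 1 listed late red cell marker had no row and was dropped. Differences were log2(TPM + 1) with a pseudocount of 1, and a call was over 2-fold. Intervals of ratios are Clopper-Pearson intervals (exact, 95%) on rounded expected counts. Like the floor, set at 3 counts, these cover only counting error. Start sites within 600 bases of each other were grouped. Shares of exons and starts are sums of transcript TPM, estimates from short reads. The scripts for the log2 difference and the ratio intervals were tested on simulated data. Alternatives were other detection minimums, pseudocounts, a low filter, posterior means, FPKM, TPM rescaled to protein-coding nuclear genes, each library alone, and rounded expected counts scaled with TMM factors (edgeR 4.0.16) or size factors (DESeq2 1.42.0) in R 4.3.3; no test of either tool was run. The remaining work was done in Python 3.11.15 with pandas 2.3.3, numpy 2.4.6, matplotlib 3.10.9 and scipy 1.17.1.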

Additional observations from a re-analysis of the deposited data

How the results depend on the processing

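The median over members, 18.7 TPM, was 13.9 as FPKM, 43.8 as TPM rescaled to protein-coding nuclear genes and 33.4 as CPM with TMM factors, since each has another divisor; single libraries gave 18.2 and 19.2. With a minimum of 20 TPM, 3 members passed in place of 6; either library alone gave 6. With posterior means the mean log2 ratio went from -5.60 to -3.39 for Slc4a1 to Slc4a2, from -5.83 to -3.97 for Tmod1 to Tmod3, from 1.79 to 1.75 for Sptb to Sptbn1 and from 0.16 to -0.00055 for Dmtn to Ablim1; the cause was not tested. Posterior shares gave 93.4% for Sptb-202, against 93.9%, and 72.7% for Mpp1-201, against 78.4%. Among coding transcripts only, by construction, these were 95.2% and 97.3%. No member was over 2-fold apart under any of the 7 alternatives for that count, while the median log2 difference of members, 0.04, was between -0.06 and 0.07 over its scalings and pseudocounts and so has no settled sign. The scalings other than posterior means moved the median of all genes from 0.18 to 0.01.

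Leaving out 1 library gave log2 ratios of 1.77 to 1.80 for Sptb to Sptbn1, -5.73 to -5.46 for Slc4a1 to Slc4a2, 3.95 to 4.27 for Epb41 to Epb41l2, 0.32 to 1.56 for Epb42 to Tgm2, -1.38 to -1.25 for Add2 to Add1, -5.84 to -5.81 for Tmod1 to Tmod3, 0.10 to 0.22 for Dmtn to Ablim1 and -0.44 to -0.30 for Mpp1 to Mpp6. It says nothing of stability, since either value is always within 1 SD of the mean. From posterior means, an alternative chosen after seeing the data, the share of the Epb41 upstream start codon was 33.4%, against 32.4%, while shares by start and of the 63-base exon moved by less than the spread of the libraries. The share of Epb41-215 has no value among coding transcripts, and Ank1 none against Ank2, which was listed at 0 TPM in replicate 1. No paired analysis was possible because there was 1 group.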
